A study of Homo sapiens with 12 samples.

Results

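HCT116 cells that had received the siRNA against PFDN5 were compared with cells that had received a control siRNA, in both cases 90 min after serum. The members were chosen by the sample titles and are 4 of the 12 libraries of the series, 2 in each group. HCT116 is a human colon carcinoma cell line, and this one line was used throughout. Small interfering RNAs (siRNAs) are short double strands that lead to cleavage of matching messenger RNA. The siRNA was delivered with Oligofectamine, 1 sequence for each target. Serum was withdrawn 24 h later, the cells were kept without serum for 48 h, and serum was then given back. The control group (siControl) went through the same transfection, starvation and serum. The other 8 libraries hold the same siRNAs before serum and an siRNA against PFDN2.

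Prefoldin is a chaperone made of the subunits PFDN1, PFDN2, VBP1 (also called PFDN3), PFDN4, PFDN5 and PFDN6. It holds newly made actin, tubulin and other proteins and passes them to the ring-shaped chaperonin TRiC, where they fold. Some of its subunits have also been found in the nucleus, bound to genes that are being transcribed, and the comparison asks which RNAs differ when PFDN5 is targeted while serum-response genes are active. Serum switches on immediate-early genes such as FOS and EGR1, whose introns are removed and whose RNA matures within minutes.

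The siRNA sequences are shown because the site decides which PFDN5 RNAs can be lowered. In the PFDN5 siRNA the capitals mark the bases that lie in the downstream of the 2 exons it joins.
siPFDN5: agagaagACAGCUGAGGAU
siControl: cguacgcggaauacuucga
Both are 19 bases long and written 5′ to 3′. The PFDN5 siRNA matched 11 transcripts of PFDN5 in GENCODE release 29, with 7 bases in one exon and 12 in the next, at chr12:53297918-53298056 on the plus strand of GRCh38 with the intron included. The control siRNA matched 0 transcripts.

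Total RNA was depleted of 18S ribosomal RNA and copied with random hexamers, so unspliced RNA was read along with mature RNA. Counts over exons came to 63630115 and 114454288 in siControl and to 67144889 and 77282247 in the libraries labelled siPFDN5. Across 11035 genes with a mean log2 CPM of at least 3, the SD of the log2 difference between the replicates was 0.183 for siControl and 0.14 for siPFDN5, and the SD of the difference between the group means was 0.296. CPM is a gene's count scaled to a common library total. The epithelial markers EPCAM, CDH1, KRT8, KRT18, KRT19 and CLDN4 were present in all 4 libraries, while TSPAN8 and LGALS4, which also mark gut epithelium, stood at no more than 0.104 CPM. Of the 8 markers of other cell types, COL1A1 was the highest with 8 to 17.5 CPM, and CD3E had 0 counts. Their summed level was 14.5 and 18.9 CPM in siControl against 9.13 and 12.4 CPM in labelled siPFDN5. The part of other cell types in the results was not tested.

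The targeted RNA, PFDN5, was hardly lower after serum with its siRNA. On exons siControl had 86.1 and 85.9 CPM and labelled siPFDN5 had 74.4 and 76.2 CPM, a log2 fold change of -0.19 (SE 0.08, adjusted p = 0.122). The groups did not overlap, yet the difference did not pass the test. Over the whole gene body the groups overlapped, with 65.3 and 71.4 CPM against 64.9 and 65.9 CPM (log2 fold change -0.06, SE 0.11, adjusted p = 0.723). This value turned to 0.03 without siControl replicate 2. Before serum the same siRNA went with 54.8 and 58.2 CPM against 97.3 and 88.1 CPM, a fall by 0.71 on the log2 scale (adjusted p = 0.00085). The difference of the 2 effects was 0.55 (adjusted p = 0.00943). Scaled like CPM, the estimates of the 11 transcripts that hold the siRNA site summed to 102 and 100.003 in siControl and to 79.1 and 85.9 in the libraries labelled siPFDN5. Before serum they summed to 113.9 and 100.2 against 56.1 and 53.7. The 9 transcripts without the site stood between 2.4 and 3.9 in all 12 libraries. PFDN5 (ENSG00000123349) lies on GRCh38 chromosome 12, 53295291 to 53299450, and overlaps 1 other gene. Because the targeted RNA goes only weakly with its label, the group is called "labelled siPFDN5" throughout, and every direction below is that of these libraries against siControl.

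**Figure D1:**
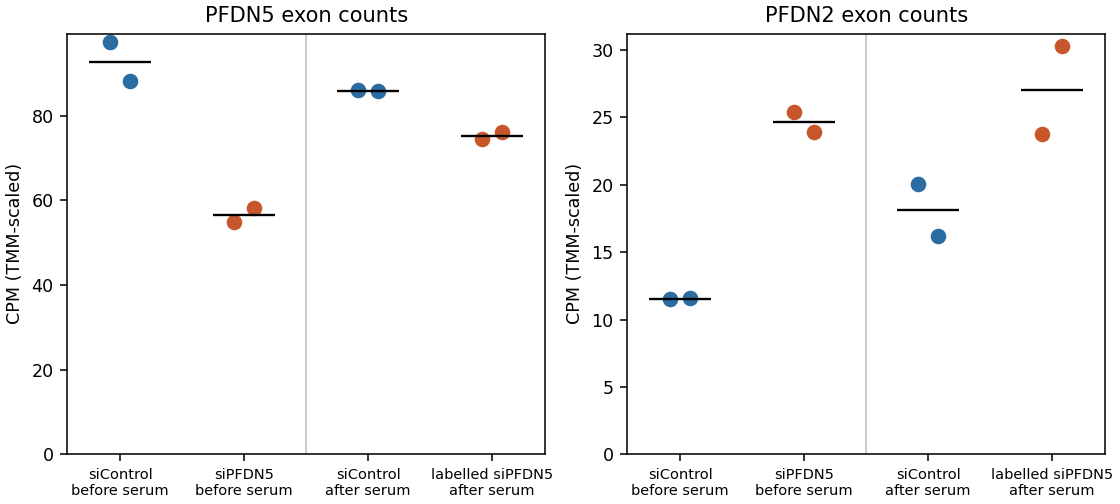
Exon CPM of PFDN5 and PFDN2 (vertical axes, from 0) in each library of siControl (blue) and siPFDN5 (orange), before serum on the left of the grey line and after serum on the right. Points are libraries, lines are means of 2, and the 2 times were scaled separately; PFDN5 with its siRNA stands at 74.4 and 76.2 CPM after serum and at 54.8 and 58.2 CPM before it.

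Across all genes, most RNAs of ribosomal proteins, of nuclear-encoded respiratory complex I and of p53 targets rose in the libraries labelled siPFDN5. Transcripts of the mitochondrial genome, FASN, ZFP36L2 and POLR2A were lower. Of 22702 genes tested on exon counts, 20.4% were called at an adjusted p under 0.05, with 2483 higher and 2156 lower, that is 10.9% and 9.50% of those tested. The balance moved with the scaling, to 2037 higher and 2518 lower with upper-quartile scaling and to 1386 and 2171 with library size alone. Large falls outnumbered large rises: 541 called genes were more than 2-fold lower and 74 more than 2-fold higher. The shares 10.9% and 9.50% are those to set beside the list counts after serum given below. For list counts before serum the shares over all genes were 7.44% higher and 7.73% lower. The 2 libraries of a group are not stated to be separate cultures, so the p-values measure only the spread between these libraries. In bulk RNA, less RNA per cell and fewer cells that carry it cannot be told apart. When all 12 libraries shared 1 estimate of the spread, 1 gene was called. That estimate includes siPFDN2 before serum, and with the 10 libraries left after its removal 7071 genes were called, among them 4522 of the 4639. The siControl libraries after serum varied more than most other groups, so a spread shared with those would be too small. The 7071 calls are therefore no support for the 4639. Without labelled siPFDN5 replicate 1 or 2 the calls numbered 1741 and 2308, and without siControl replicate 2 they numbered 8751.

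PFDN2, the partner subunit, was among the prefoldin genes that rose. It stood at 20.03 and 16.2 CPM in siControl against 23.7 and 30.3 CPM in labelled siPFDN5 (log2 fold change 0.58, SE 0.14, adjusted p = 0.0256). The groups did not overlap, but the call was lost without labelled siPFDN5 replicate 2 (adjusted p = 0.0631). Before serum PFDN2 was higher by 1.09 on the same scale. VBP1 rose from 68.7 and 77.0 to 105.3 and 93.7 CPM (0.45, SE 0.10, adjusted p = 0.00877). PFDN4 rose from 23.1 and 23.9 to 30.8 and 33.2 CPM (0.44, SE 0.09, adjusted p = 0.0066). PFDN6 was at 22.97 and 18.8 against 24.9 and 32.7 CPM and was not called (adjusted p = 0.0675). Thus 3 of 6 prefoldin genes rose and none fell, where 10.9% of all genes rose. Of the 3 calls that of VBP1 was left without labelled siPFDN5 replicate 2, and VBP1 was not called without replicate 1 (adjusted p = 0.109). The list's median log2 fold change was 0.45, beside -0.02 for all genes.

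Of TRiC, which receives the clients of prefoldin, most subunit genes rose. Of the 8 genes 7 rose, with a median of 0.34, and CCT6A was not called (0.23, adjusted p = 0.0985). CCT5 rose from 393 and 426 to 550.2 and 536 CPM, a log2 fold change of 0.41 (SE 0.09, adjusted p = 0.0115). TCP1, the founding subunit, rose from 387 and 434 to 559 and 515 CPM (0.39, SE 0.10, adjusted p = 0.0179). In both genes every labelled siPFDN5 library was above every siControl library. Without either labelled siPFDN5 library no TRiC gene was called. Before serum 0 of the 8 were higher and 1 was lower.

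Of 13 actin and tubulin genes, the main clients of this pathway, 6 rose and none fell. TUBB2A, a beta-tubulin, rose from 14.5 and 16.5 to 24.6 and 27.1 CPM (log2 fold change 0.74, SE 0.10, adjusted p = 0.00152). TUBA1C, an alpha-tubulin, rose from 232 and 249.9 to 313 and 339 CPM (0.44, adjusted p = 0.00884). The abundant forms were not called: ACTB, beta-actin, differed by 0.10 (adjusted p = 0.49) and TUBB, the main beta-tubulin, by 0.03 (adjusted p = 0.851), a value that turned to -0.04 with library size alone. Without either labelled siPFDN5 library 3 actin and tubulin genes were called, and TUBA1C lost its call without replicate 2.

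The genes with the largest rises were named from those called on exon and on gene-body counts, with at least 3 log2 CPM and no exon shared with another gene. The rule also asked that both libraries of one group lie above both of the other. SNHG19, a host gene of small nucleolar RNAs on chromosome 16 (2154797 to 2155358), was at 9.76 and 9.90 CPM in siControl against 26.0 and 31.7 CPM in labelled siPFDN5 (log2 fold change 1.55, SE 0.11, adjusted p = 4.72e-05). CXCL8, the neutrophil attractant interleukin 8, rose from 58.1 and 44.6 to 120.4 and 119.5 CPM (1.23, SE 0.12, adjusted p = 0.000724). CPA4, a carboxypeptidase, rose from 12.1 and 13.8 to 27.1 and 30.8 CPM (1.16). BIRC3, an inhibitor of apoptosis and NF-kB target, rose from 21.6 and 23.9 to 47.5 and 43.6 CPM (1.00). CDKN1A, which encodes the cyclin-dependent kinase inhibitor p21, rose from 222 and 221 to 394 and 416 CPM (0.87, SE 0.09, adjusted p = 0.000493). CKS2, a small partner of cyclin-dependent kinases, rose from 54.0 and 57.9 to 98.1 and 100.5 CPM (0.83). That the labelled siPFDN5 libraries stood apart from siControl in each of these follows from the rule. Over all genes they stood apart in 32.2% upward and 33.5% downward.

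The other 4 named rises lay between 0.87 and 0.93 on the log2 scale. CST6, a secreted cysteine protease inhibitor, rose by 0.93, and SF3B5, the smallest protein of the SF3b splicing complex, by 0.90. GEM, a small GTPase, stood at 67.8 and 66.0 CPM against 126.7 and 118.3 CPM (0.87). AC092670.1, a processed pseudogene, rose by 0.87, and reads of a near-identical parent gene could be counted there.

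**Figure D2:**
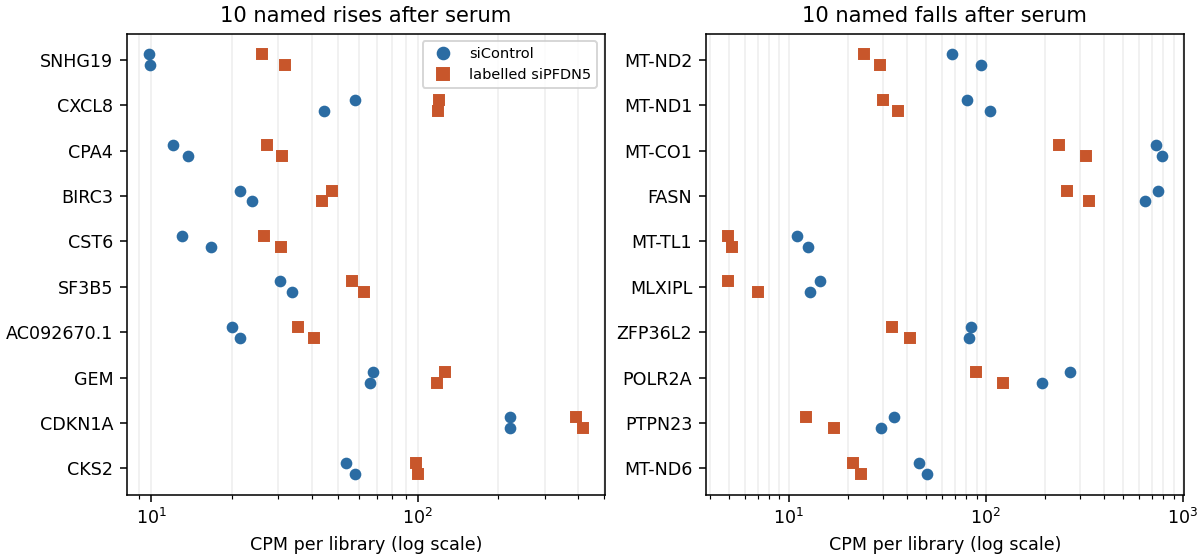
CPM of the 10 genes named as the largest rises (left) and the 10 named as the largest falls (right) after serum, on a log scale, with 1 point per library (blue circles siControl, orange squares labelled siPFDN5). In every gene the 2 groups stand apart, as the rule that chose the genes requires. SNHG19 goes from 9.76 and 9.90 CPM to 26.0 and 31.7 CPM and MT-ND2 from 67.9 and 94.5 CPM to 24.03 and 28.98 CPM.

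Targets of p53, the tumour suppressor that halts the cell cycle and promotes cell death, rose as a group: 19 of 23 rose and none fell, with a median log2 fold change of 0.43. FAS, a death receptor, went from 19.9 and 22.5 CPM to 45.8 and 43.4 CPM (1.07, SE 0.09, adjusted p = 0.00022). TP53I3, an oxidoreductase induced by p53, went from 14.4 and 14.8 to 29.4 and 28.6 CPM (0.99). PHLDA3, which restrains AKT, rose by 0.71. The groups did not overlap in any of the 3. All 3 share exon bases with another gene, and the counts let overlapping genes share reads. PFDN2, CCT5, TCP1, RPS18, NDUFA3, NDUFA13 and other genes named here share exon bases too. With all overlapping genes left out of the test, 7 p53 targets rose and 0 fell. Before serum, in other libraries, 13 of 23 members were higher and none lower. Without either labelled siPFDN5 library 12 p53 targets were called.

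Among NF-kB targets and cytokines, 9 of 16 tested genes rose and none fell (median 0.47). CXCL1, a chemokine, was low at 2.62 and 2.58 CPM and rose to 6.69 and 5.89 CPM (1.27, SE 0.14, adjusted p = 0.0005). NFKBIA, the inhibitor that NF-kB induces against itself, rose from 73.8 and 70.8 to 104.5 and 109.8 CPM (0.57, adjusted p = 0.0022). Before serum 6 of 15 members were higher and none lower.

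Ribosomal protein genes shifted nearly together. Of 79 genes 72 rose and none fell, with a median of 0.51 on the log2 scale. RPS18, a protein of the small subunit, stood at 964 and 1077 CPM in siControl against 1570 and 1644 CPM in labelled siPFDN5 (0.66, SE 0.10, adjusted p = 0.0024). RPL41, the shortest large-subunit protein, stood at 51.1 and 55.6 against 82.0 and 90.8 CPM (0.70). Together these genes took 3.98% and 4.35% of the exon counts in siControl and 5.48% and 5.72% in the libraries labelled siPFDN5. These were the 2 highest shares among the 12 libraries, where the other 10 lay between 3.84% and 4.88%. Ribosomal protein genes have many processed copies in the genome. Of 1796 processed pseudogenes tested 200 rose, near the 10.9% of all genes, and 71 fell, where 9.50% of all genes did. The calls numbered 47 without labelled siPFDN5 replicate 1 and 31 without replicate 2. Before serum 16 were higher and 2 lower.

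Of 38 nuclear genes of respiratory complex I, the entry of electrons into the respiratory chain, 34 rose and none fell (median 0.43). NDUFA3 stood at 20.9 and 20.9 CPM against 34.8 and 38.4 CPM (0.81, SE 0.09, adjusted p = 0.000612), and NDUFA13 at 56.5 and 60.9 against 89.0 and 106.0 CPM (0.73). Both encode accessory subunits. Without either labelled siPFDN5 library 21 complex I genes were called, and NDUFA3 was not called in the sums of transcript estimates (adjusted p = 0.0867). Of 32 proteasome genes 17 rose and none fell (median 0.30). PSMD8, a lid subunit, rose from 100.0 and 108 to 147 and 148 CPM (0.50), and PSMB3, a core subunit, from 86.1 and 95.0 to 127 and 123 CPM (0.47). Before serum 1 proteasome gene was higher and 8 were lower. The number called was 5 without labelled siPFDN5 replicate 1 and 4 without replicate 2, and with library size alone it was 8.

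Of 24 small nucleolar RNA host genes 7 rose and 1 fell. Without siControl replicate 2, 13 rose and none fell, and in the sums of transcript estimates 1 was called. The fall was also not called without the filter on low counts or in DESeq2, where no gene of this list fell. SNHG8 rose by 0.71 and DANCR, whose gene also hosts small nucleolar RNAs, by 0.70. Of 30 ribosome biogenesis genes 8 rose and 3 fell. NOP10, of the particle that makes pseudouridine, rose from 50.5 and 63.6 to 93.8 and 96.9 CPM (0.74). POLR1A, the largest subunit of RNA polymerase I, fell from 115 and 90.9 to 68.3 and 72.6 CPM (-0.55, SE 0.11, adjusted p = 0.00926). In this list 2 rose and 1 fell without labelled siPFDN5 replicate 1, without replicate 2, 3 rose and 3 fell, and without siControl replicate 2, 12 rose and 5 fell.

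The heat shock list had 7 of 21 genes higher and none lower. HSPA8, the constitutive HSP70, rose from 1540 and 1901 to 2850 and 2527 CPM (0.64), and HSPE1, the mitochondrial co-chaperonin, by 0.44. The count was 2 without labelled siPFDN5 replicate 1, with HSPE1 not called, and 4 without replicate 2. In the unfolded protein and integrated stress response 6 of 19 genes rose and 1 fell. XBP1, a transcription factor of this response, rose from 50.7 and 56.3 to 77.4 and 75.5 CPM (0.51). DDIT3, the factor CHOP, rose by 0.58, while DDIT4, an inhibitor of mTORC1, fell by 0.38. In this list 4 rose without labelled siPFDN5 replicate 1 and DDIT4 lost its call, and without siControl replicate 2, 9 rose and 2 fell. Before serum 3 were higher and 3 lower.

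Transcripts of the mitochondrial genome had the lowest median of all the lists. Of its 13 protein-coding genes 12 fell, with a median of -1.49 on the log2 scale. MT-ND2, of complex I, stood at 67.9 and 94.5 CPM in siControl against 24.03 and 28.98 CPM in labelled siPFDN5 (-1.62, SE 0.18, adjusted p = 0.00575). MT-CO1, of complex IV, stood at 733 and 786 against 236 and 322 CPM (-1.44). MT-ND4 was at 279 and 386 against 80.1 and 115 CPM (-1.77), and MT-ATP8, of the ATP synthase, at 46.7 and 49.7 against 14.3 and 17.6 CPM (-1.60). MT-ND1 fell by 1.49 and MT-ND6, the one protein gene coded on the other strand, by 1.12. MT-TL1, a transfer RNA, fell from 10.99 and 12.5 to 4.91 and 5.16 CPM (-1.22). No labelled siPFDN5 library reached a siControl library in these genes. The rule for the largest changes requires this for all of them except MT-ND4 and MT-ATP8. Over all 37 mitochondrial genes tested 26 fell and 1 rose.

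The mitochondrial genome took 8.28% and 9.66% of the exon counts in siControl and 4.63% and 4.78% in the libraries labelled siPFDN5. In the other 8 libraries it took 5.95% to 11%, so the low values lie below every other library. This share varied within groups: it was 11% and 5.95% in siPFDN2 after serum. Most of it was RNA other than that of the protein-coding genes, which took 0.301% and 0.389% in siControl. In the libraries labelled siPFDN5 the protein-coding genes took 0.0982% and 0.132%. With the 10 libraries without siPFDN2 before serum, 1 of the 13 was called (MT-ND2 adjusted p = 0.0753). Counting used no strand and the genes lie end to end, so neighbours can share reads. Before serum 0 of the 13 were lower and 1 was higher.

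The nuclear genes described here were named by the same rule for the size of their falls. FASN, fatty acid synthase on chromosome 17 (82078333 to 82098332), was at 752 and 647 CPM in siControl against 260.2 and 334 CPM in labelled siPFDN5 (-1.24, SE 0.13, adjusted p = 0.00119). MLXIPL, the carbohydrate-sensing transcription factor ChREBP, stood at 14.4 and 12.9 against 4.91 and 7.01 CPM (-1.19). ZFP36L2, which binds AU-rich messages and hastens their decay, stood at 83.9 and 82.3 against 33.4 and 41.5 CPM (-1.15, SE 0.10, adjusted p = 0.00031). POLR2A, the largest subunit of RNA polymerase II on chromosome 17 (7484366 to 7514616), stood at 268 and 193 against 89.2 and 122.5 CPM (-1.12, SE 0.23, adjusted p = 0.0396). The groups did not overlap, as the rule requires. Scaling by library size alone ended the call of POLR2A (adjusted p = 0.051), as did asking for at least 10 counts in every library (adjusted p = 0.0542). PTPN23, a phosphatase of endosomal sorting, stood at 34.2 and 29.6 against 12.2 and 16.98 CPM (-1.12).

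The cholesterol and fatty acid synthesis list as a whole did not go one way, with 6 of 27 genes higher and 6 lower. Besides FASN, SREBF1, the regulator of fatty acid synthesis, fell from 149.6 and 134 to 88.3 and 98.4 CPM (-0.60, SE 0.10, adjusted p = 0.00277). SCD, the stearoyl-CoA desaturase, fell from 1911 and 2198 to 1365 and 1362 CPM (-0.59). Before serum 1 of the 27 was higher and 2 were lower. After serum, without labelled siPFDN5 replicate 1, 0 rose and 2 fell, with SCD not called. Without replicate 2, 2 rose and 4 fell, and without siControl replicate 2, 14 rose and 5 fell.

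Immediate-early genes, the first genes serum switches on, were called in both directions. Of 24 members 2 rose and 4 fell, with a median of -0.18, where 10.9% of all genes rose and 9.50% fell. KLF4 fell from 42.0 and 41.0 to 28.5 and 29.6 CPM (-0.51, SE 0.08, adjusted p = 0.00298), and NR4A2 from 502 and 437 to 307 and 367 CPM (-0.48). KLF6 and KLF2 fell by 0.41 and 0.40. The 2 that rose were MAFF (0.36) and IER3 (0.35). FOS and EGR1, named after their values had been seen, were not called. FOS was at 86.7 and 41.3 CPM in siControl against 22.97 and 29.7 CPM in labelled siPFDN5 (-1.27, SE 0.54, adjusted p = 0.256). EGR1 stood at 174.7 and 96.5 against 54.4 and 85.8 CPM (-0.95, SE 0.50, adjusted p = 0.322). In both genes siControl replicate 1 was the highest library, and the spread within siControl was wide. Before serum 12 of 23 members were higher and 0 lower. After serum, without siControl replicate 1, 3 members rose and 8 fell, and without its replicate 2, 3 rose and 11 fell. None rose and 4 fell without labelled siPFDN5 replicate 1, and without replicate 2 none rose and 3 fell. NR4A2, KLF6 and KLF2 lost their calls without labelled siPFDN5 replicate 1.

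Cytoskeletal targets of SRF and MRTF, which sense free actin, gave 5 higher and 1 lower of 18. FHL2, a LIM protein, rose from 79.5 and 95.0 to 153 and 153 CPM (0.81, SE 0.10, adjusted p = 0.00105), and TPM2, a tropomyosin, from 150.3 and 155 to 215 and 212 CPM (0.48). FLNA, the actin cross-linker filamin A, fell from 762 and 654 to 412 and 470.4 CPM (-0.68, SE 0.11, adjusted p = 0.00266). Of 14 YAP and TEAD targets 1 rose and 2 fell. The one that rose was ANKRD1, at 0.667 and 1.18 against 3.20 and 2.72 CPM (1.64). Of 14 DUSP, SPRY and ERBB feedback genes 2 rose and none fell. Without labelled siPFDN5 replicate 1, 3 SRF targets rose, FLNA lost its call (adjusted p = 0.0515) and 0 feedback genes were called. Without replicate 2, 2 SRF targets rose and 1 fell. Without siControl replicate 2, 3 YAP targets rose and 3 fell, and 4 feedback genes rose and 2 fell. Without siControl replicate 1, 2 feedback genes rose and 2 fell.

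In the core spliceosome 10 of 34 genes rose and 3 fell. It had 9 rises and 1 fall without labelled siPFDN5 replicate 1, and 7 and 4 without replicate 2. PRPF8, the large protein at its catalytic centre, fell from 523 and 409 to 206 and 238 CPM (-1.07, SE 0.13, adjusted p = 0.00171), whereas SNRPD2, a small Sm protein, rose from 132 and 146 to 211 and 231 CPM (0.67). The 13 SR splicing factors had 0 calls, with SRSF1 at 377 and 392 against 447 and 409 CPM. Of 16 major hnRNP genes 0 rose and 6 fell. HNRNPU went from 579.8 and 476 to 382 and 418 CPM (-0.40, adjusted p = 0.0239). The hnRNP calls numbered 0 without labelled siPFDN5 replicate 1 and 2 without replicate 2. With the trend on exon length removed, 1 hnRNP gene rose and 1 fell. Of the 8 CLK and DYRK kinases, which phosphorylate SR proteins, 2 fell. None of them was called without labelled siPFDN5 replicate 1 and 1 without replicate 2. Without siControl replicate 2, 1 of these kinases rose and 3 fell, and 12 spliceosome genes rose and 8 fell.

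Of 29 genes of elongation factors and of kinases that act on the tail of RNA polymerase II, 4 rose and 5 fell. The median log2 fold change of the 29 was 0.01. CDK7, the kinase of TFIIH, rose from 45.0 and 51.7 to 74.0 and 70.2 CPM (0.58), but was not called in the sums of transcript estimates (adjusted p = 0.736). Of the 29, 2 rose and 1 fell without labelled siPFDN5 replicate 1.

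Among cell cycle genes, histone and mitotic genes were called upward, and replication genes in both directions. Of 18 replication-dependent histone genes 12 rose and none fell (median 0.40). HIST1H2AG stood at 147.7 and 147.2 CPM in siControl against 232 and 195 CPM in labelled siPFDN5 (0.53, SE 0.10, adjusted p = 0.00502). HIST1H2BJ stood at 80.4 and 83.0 against 123.5 and 109 CPM (0.51). Before serum all 17 tested were lower. No histone gene was called without labelled siPFDN5 replicate 1. Of 32 DNA replication genes 3 rose and 4 fell. POLE, the leading-strand polymerase, fell from 119.7 and 86.9 to 59.2 and 69.5 CPM (-0.68), and PCNA, the sliding clamp, rose by 0.33. With either labelled siPFDN5 library left out, 0 replication genes rose and 1 fell. PCNA was also lost with library size alone (adjusted p = 0.0508). Before serum 1 of the 32 was higher and 17 were lower. Of 29 mitotic genes 11 rose and none fell. CDK1, the mitotic kinase, rose from 83.2 and 98.4 to 141.8 and 130.3 CPM (0.58, SE 0.10, adjusted p = 0.00364). Of the mitotic genes 2 rose and 1 fell without labelled siPFDN5 replicate 1, without replicate 2, 2 rose, with library size alone 5 rose, and without siControl replicate 2, 17 rose and 2 fell. Among 17 cyclins and inhibitors of G1, CDKN1A rose and 3 fell, with E2F2 at -0.53 and CDKN1B, which encodes p27, at -0.48. Without siControl replicate 2, 3 of these rose and 4 fell.

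The last lists were small or mixed. Of 26 glycolysis and hypoxia genes 3 rose and 1 fell. Without either labelled siPFDN5 library 1 rose and 1 fell, and without siControl replicate 2, 14 rose and 1 fell. Of 10 tested Wnt feedback genes 1 rose and 4 fell. AXIN2, the classical target, stood at 6.69 and 7.64 against 5.05 and 5.70 CPM (-0.42, adjusted p = 0.0363), and DKK1, a secreted inhibitor, rose by 0.63. Of the Wnt genes 0 fell without labelled siPFDN5 replicate 1 and AXIN2 lost its call, and without replicate 2, 1 fell. DESeq2 called neither AXIN2 nor DKK1. Of 7 nuclear long noncoding RNAs, 1 fell. MALAT1 stood at 1326 and 846 CPM in siControl against 366 and 427 CPM in labelled siPFDN5 (-1.45, SE 0.24, adjusted p = 0.0227). NEAT1, which builds paraspeckles, stood at 138 and 66.2 against 30.7 and 36.1 CPM and was not called (-1.61, SE 0.51, adjusted p = 0.175). Both were highest in siControl replicate 1. Without either siControl library 3 of the 7 fell. Of the epithelial markers CDH1 fell by 0.47 and KRT18 rose by 0.47, and of the markers of other cell types VWF fell by 0.89 at 0.59 to 1.27 CPM. Without labelled siPFDN5 replicate 1 none of these 3 was called, and without replicate 2, KRT18 and VWF were not.

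**Figure D3:**
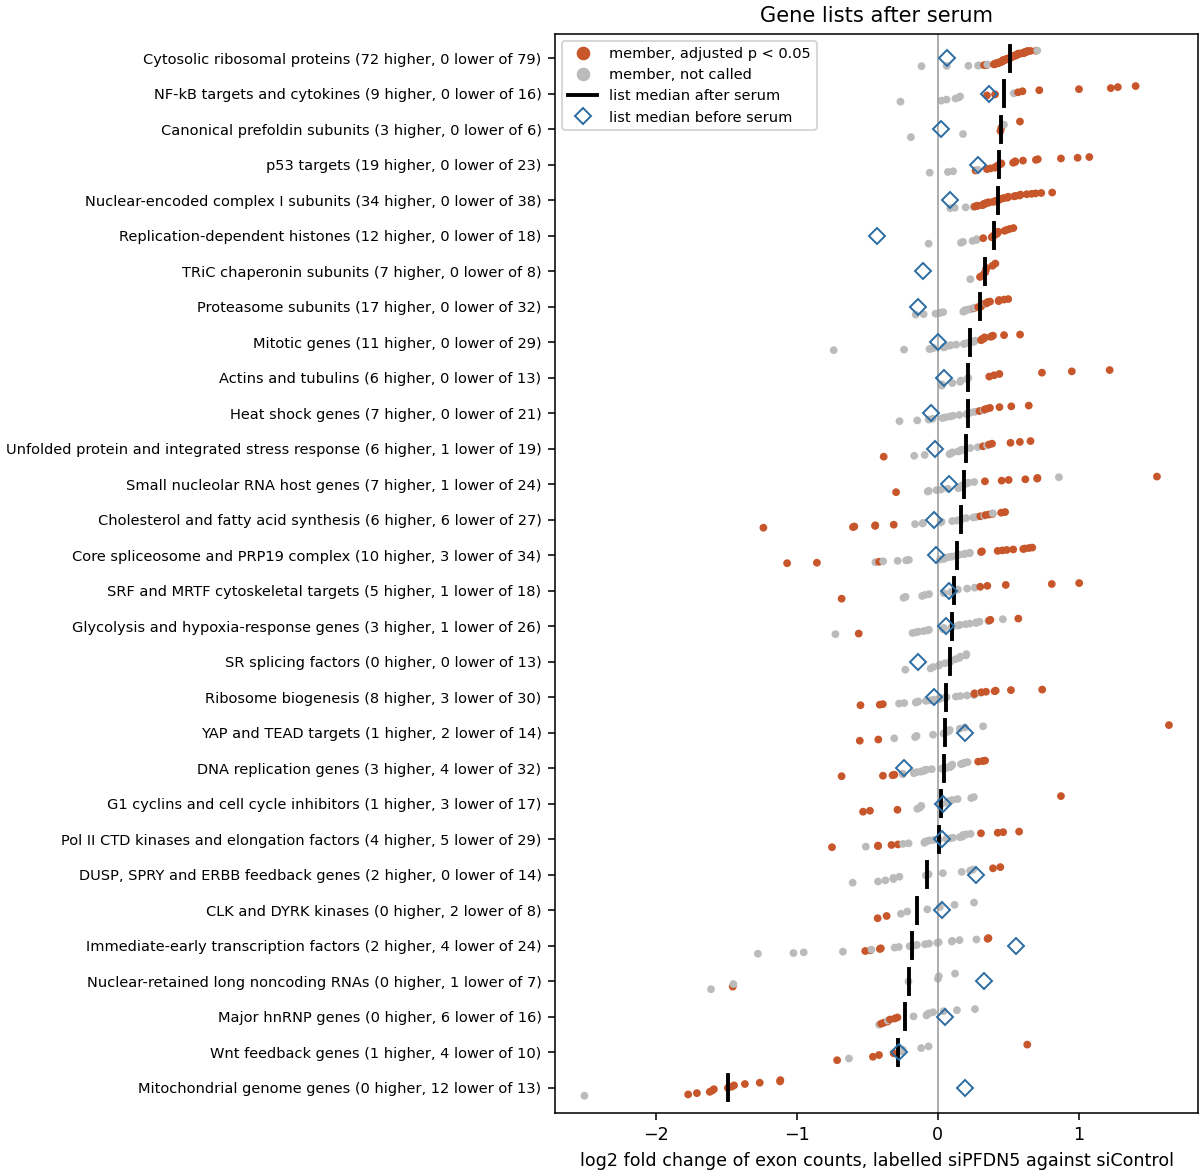
Log2 fold change of exon counts after serum (horizontal axis) for every tested member of each gene list (rows, sorted by median), with called members in orange, others in grey, list medians as black bars and the list's median before serum as blue diamonds. Row names give the number higher and lower of those tested; ribosomal protein genes have the highest median, 0.51, and genes of the mitochondrial genome the lowest, -1.49.

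Log2 fold change went with the length of the message. Protein-coding genes were sorted into 5 equal groups by exon length. The shortest group, up to 2684 bases, had a median log2 fold change of 0.18, with 28.1% of genes called higher and 3.51% lower. The longest group, from 7938 bases, had a median of -0.14, with 4.0% higher and 20.7% lower. The medians of the groups between were 0.10, 0.02 and -0.05. Spearman's rho between exon length and log2 fold change was -0.313 over 14509 genes, which share the same 4 libraries. Before serum rho was 0.12, and the medians ran from -0.03 in the shortest to 0.07 in the longest group. As deviations from the mean of the 4 libraries, the shortest group stood at 0.08 and 0.10 in labelled siPFDN5 and at -0.13 and -0.06 in siControl. In the longest it stood at -0.08 and -0.06 against 0.11 and 0.02. Deviations from a shared mean offset each other, so they do not show which group carries the trend.

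Median exon length was 2982 bases for the ribosomal protein list and 2369 for complex I. Among protein-coding genes the shortest group reached 2684 bases and the second ran from 2685 to 4077. Over all genes tested, noncoding ones included, the median was 3264. List values are therefore also given with the trend on exon length removed. Then 73 ribosomal protein genes rose (median 0.48), 35 complex I genes (0.39), 18 p53 targets (0.48), 9 NF-kB targets (0.43) and 6 TRiC genes (0.29). In the same fit 12 mitochondrial genes fell (-1.53). Exon length is that of all annotated exons of a gene. GC content went with the difference less strongly (rho -0.177).

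**Figure D4:**
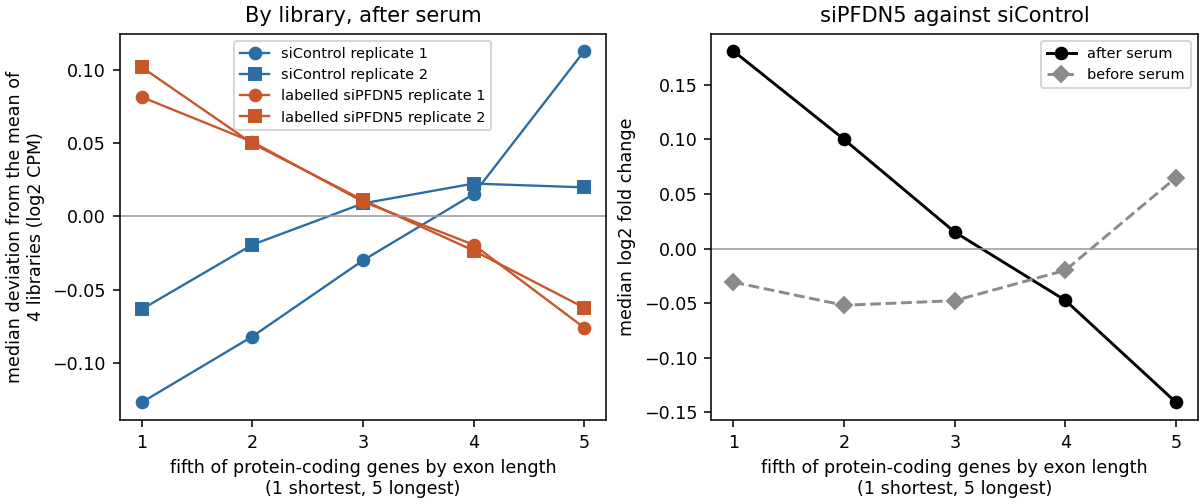
Left, median deviation of each library from the mean of the 4 (log2 CPM) in 5 groups of protein-coding genes by exon length, with circles for replicate 1 and squares for replicate 2. Right, median log2 fold change of the same groups after serum (black) and before serum (grey); after serum it goes from 0.18 in the shortest to -0.14 in the longest group.

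By gene type, the sense-intronic RNAs, which lie inside introns of other genes, gave calls in 1 direction. Of 259 sense-intronic RNAs 49 fell and 0 rose (median -0.72), and of 82 microRNA genes 13 fell and 3 rose. Of 284 loci awaiting experimental evidence (TEC) 38 fell and 7 rose. Reads from the introns of the surrounding gene cannot be told apart from such RNAs in these counts.

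Gene-body counts, which add introns to exons, gave fewer calls. Of 25440 genes 1986 were called (7.81%), with 1196 higher and 790 lower (4.70% and 3.11%). The groups stood apart in 32.5% of the genes upward and in 32.6% downward. Of the exon calls 37.9% were also gene-body calls, and of the gene-body calls 88.5% were also exon calls, with the same sign in 1756 of 1758. The replicates of siControl agreed less over gene bodies, with an SD of 0.301 against 0.149 for siPFDN5. The genes named above as the largest changes have the same direction in both by the rule that chose them: SNHG19 rose by 1.60, CXCL8 by 1.36, FASN fell by 1.08 and POLR2A by 0.98. Library size alone lowered the median of all gene-body changes by 0.157 on the log2 scale. With library size only, or with the GC trend removed, no gene-body call was left, although 7851 and 8065 genes had an unadjusted p under 0.05 in edgeR. DESeq2 called 3386. The count ran from 621 without labelled siPFDN5 replicate 1 and 1093 without replicate 2 to 5213 and 12693 without siControl replicate 1 and 2.

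Introns were then taken as the gene-body count less the exon count, in genes that overlap no other gene. In these genes the libraries labelled siPFDN5 held the lowest intronic shares of the 12 libraries. Over the 24100 genes, introns took 2.65% and 2.70% of the counts in the libraries labelled siPFDN5, against 6.90% and 3.61% in siControl (means ± SD 2.68 ± 0.03 and 5.25 ± 2.33, n = 2 per group). The other 8 libraries lay between 3.703% and 5.81%. The groups did not overlap, and the exact two-sided permutation test gave p = 0.333, the smallest that 2 libraries against 2 allow. Most of the distance came from siControl replicate 1, the highest of the 12 libraries. Without it the difference shrank from -2.58 to -0.93 percentage points. In the 13190 of these genes that have introns and lie outside mitochondria, the shares were 3.55% and 3.57% against 10.05% and 5.57%. Over all genes, where an intron can hold another gene's exon, the groups overlapped, at 17.2% and 14.8% against 20.6% and 16.2%.

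**Figure D5:**
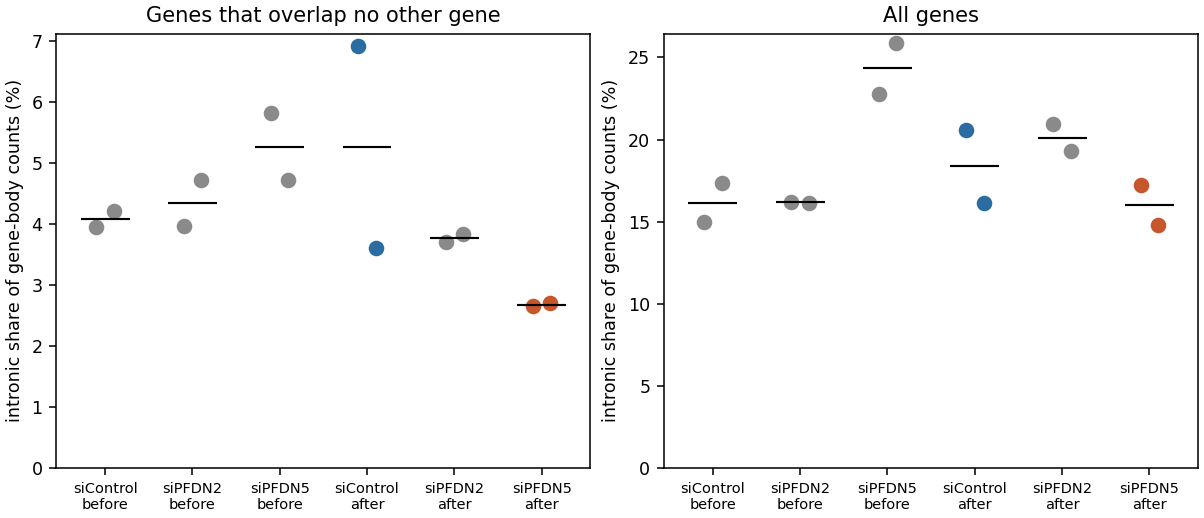
Share of gene-body counts that fall in introns (vertical axes, from 0) in each of the 12 libraries by group, for genes that overlap no other gene (left) and for all genes (right). Points are libraries and lines are means of 2; on the left the libraries labelled siPFDN5 after serum (orange), at 2.65% and 2.70%, are the lowest of the 12, and on the right they overlap with siControl after serum (blue).

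Per gene, the direction of the intronic test depends on how the libraries are scaled. Scaled among themselves, the intronic counts of 4520 genes gave 0 calls in edgeR, with 715 genes at an unadjusted p under 0.05 and 27 calls by DESeq2. The exon level and intronic level of a gene were then set in a ratio. With both columns scaled separately, 0 of 4053 genes were called in edgeR, with 729 at an unadjusted p under 0.05. With 1 library size for both kinds of count, 36.1% of the genes were called, with a median log2 change of -0.91. Of these 1460 (36.0%) fell and 3 (0.0740%) rose. The 3, named after their values were seen, were FASN (1.09, adjusted p = 0.0201), MUC6 (1.93) and CRYBA1 (1.39). That median was -0.60 without siControl replicate 1 and -1.20 without replicate 2. Without labelled siPFDN5 replicate 1 or 2 the number called was 0 and 1.

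On the scale of the intronic totals, none of the named genes passed the test, and the following values are a description. CXCL8 stood at 23.1 and 29.04 intronic CPM in siControl against 99.8 and 99.9 in labelled siPFDN5 (1.93, adjusted p = 0.0847). CDKN1A stood at 169 and 222 against 359 and 409 intronic CPM (0.97), and BIRC3 at 91.5 and 85.7 against 173 and 163 (0.92). In these 3 genes the labelled siPFDN5 libraries were the higher ones on exons and on introns. GEM, whose exons rose, stood at 676 and 540.4 against 612 and 593 intronic CPM, groups that overlapped. FASN, whose exons fell, stood at 599 and 1182 against 1487 and 1347 intronic CPM (0.67, adjusted p = 0.356). POLR2A stood at 368 and 322 against 366 and 369.6 intronic CPM, groups that overlapped. Over all intronic tests the groups stood apart in 25.8% of the genes upward and 24.8% downward. These intronic levels are relative to a total that was itself smaller in the libraries labelled siPFDN5.

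The same siRNA before serum, in 4 other libraries, gave 3462 calls among 22834 genes (15.2%), with 7.44% higher and 7.73% lower. The groups before serum stood apart in 29.9% of the genes upward and 31.4% downward. Across 21995 genes tested at both times, 52.0% had the same sign, and of the calls after serum 59.2% did. Called at both times were 886 genes, which is 19.1% of the calls after serum and 25.6% of those before. Of these 677 had the same sign and 209 the opposite. Across the 10921 genes with a mean log2 CPM of at least 3, Pearson's r of the fold changes was 0.084. SNHG19 was higher by 1.15 before serum (adjusted p = 0.000689), CXCL8 by 1.43, CPA4 by 1.29 and CDKN1A by 0.63. FASN, POLR2A and MT-ND2 were not called before serum, at -0.05, 0.18 and 0.07. Leaving out 1 library at a time gave 209 to 7555 calls before serum. The difference after against before serum was itself tested in the 8 libraries, where 3776 of 24256 genes (15.6%) were called, 2299 (9.48%) with a positive and 1477 (6.09%) with a negative difference. It passed for FASN (-1.16, adjusted p = 0.00402) and POLR2A (-1.27, adjusted p = 0.0311), and not for MT-ND2 (-1.66, adjusted p = 0.129), CXCL8 or SNHG19. Leaving out 1 library at a time gave 164 to 7616 calls of this difference, the fewest without siPFDN5 before serum replicate 2 and the most without siControl after serum replicate 2.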

How the data were processed

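The members, gene lists, tests and named genes were chosen with earlier results of these data known. The authors deposited counts per gene over exons and over gene bodies; per the file headers, featureCounts was run on the Ensembl 87 annotation of GRCh38, required both ends of a pair to map, let overlapping genes share a fragment and ignored strand. The authors' per-sample files hold estimated counts per transcript, which were summed per gene and rounded. The submitters' processing notes name HISAT2, featureCounts 1.5.2 and kallisto 0.43. Of the columns of each count file, 6 matched no sample label and were not used. Gene names for 57447 of 58051 genes, and GC content, came from GENCODE 29.

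The 4 libraries were fitted alone with edgeR 4.0.16 (R 4.3.3): filterByExpr, TMM scaling, robust quasi-likelihood test, two-sided, Benjamini-Hochberg adjusted p under 0.05. Log2 CPM values used a prior count of 2, and log2 fold changes are those of the fit. SE is the absolute log2 fold change divided by the square root of the test's F. Intronic counts were gene-body less exon counts. The intron-to-exon ratio was an interaction with the library as block. The code was tested on simulated data, where 77.3% of 2-fold changes in exon counts were recovered among 22884 genes. Named genes were PFDN5, PFDN2, the 10 largest rises and falls by the rule in the text, and up to 4 called members per list (1 gene under this rule is not reported here); CCT6A, PFDN6, ACTB, TUBB, NFKBIA, MAFF, IER3, FOS, EGR1 and NEAT1 were named after their values were seen. Alternatives were other scaling, filters, DESeq2 1.42.0, more libraries, GC and exon-length trends (lowess span 0.3), non-overlapping genes, a replicate block and each library left out.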

Additional observations from a re-analysis of the deposited data

Results flagged for a closer look

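Of 87 genes named in the text for their exon counts, 50 had a log2 fold change after serum that differed from the one before serum, by the edgeR interaction test over 8 libraries with Benjamini-Hochberg adjustment (adjusted p from 0.000964 to 0.048). The values below are the change after serum less the change before it. Of these 50, 37 differences were positive and 13 negative. Among all 24256 genes in this test, 15.6% were called. Most of the 87 were named for their exon change after serum, in libraries that this test uses again. The number 50 therefore does not show how common such differences are. The cause of the differences was not tested.

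Among genes of the cell cycle, p53 and stress, the difference was 1.16 for HIST1H2BJ, 0.88 for HIST1H2AG, 0.88 for PHLDA3, 0.86 for CKS2, 0.84 for HSPA8, 0.78 for NFKBIA, 0.62 for FAS, 0.49 for TP53I3, 0.46 for CDK1 and 0.44 for PCNA. Among genes of the ribosome, respiration, proteasome and RNA processing it was 0.77 for NOP10, 0.73 for PSMB3, 0.61 for SNRPD2, 0.58 for PSMD8, 0.57 for NDUFA13, 0.57 for SF3B5, 0.55 for RPS18, 0.55 for DANCR, 0.54 for RPL41, 0.47 for SRSF1 and 0.41 for NDUFA3. Among chaperones and cytoskeletal genes it was 0.56 for CCT5, 0.55 for PFDN5, 0.50 for KRT18, 0.50 for TUBB2A, 0.49 for VBP1, 0.48 for FHL2, 0.44 for HSPE1, 0.44 for TCP1, 0.42 for TUBA1C, 0.39 for PFDN4 and 0.34 for CCT6A. The other positive values were 0.63 for AC092670.1, 0.55 for XBP1, 0.39 for GEM, 0.37 for IER3 and 0.36 for CDK7. Negative differences were -0.46 for KLF6, -0.48 for FLNA, -0.48 for POLR1A, -0.52 for HNRNPU, -0.58 for NR4A2, -0.60 for CDKN1B and -0.69 for PRPF8. They were larger at -0.80 for ZFP36L2, -0.82 for POLE, -1.08 for KLF4, -1.13 for PTPN23, -1.16 for FASN and -1.27 for POLR2A.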

How the results depend on the processing

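Exon calls, 4639, stayed within 1.5 times under upper-quartile scaling, library size alone, both filters, DESeq2, the GC and exon-length trends, a replicate block (3621, and 5316 with the GC trend removed), no mitochondrial genes and transcript sums. They came to 1 with all 12 libraries (4359 at an unadjusted p under 0.05), 7071 with 10 libraries and 1364 without overlapping genes, and ran from 1741 to 8751 with 1 library left out. Leaving 1 library out leaves an arm with 1 library, which is then assumed to vary like the other group. Gene-body calls, 1986, came to 0 with library size alone, 4649 with no filter, 3386 with DESeq2, 1 with 12 libraries, 6748 with 10 libraries, 0 with the GC trend removed, 1028 without overlapping genes, 3083 with the replicate block and 4471 with block and GC trend, and ran from 621 to 12693 with 1 library left out. Intronic calls, 0, came to 204 with no filter, 27 with DESeq2, 67 with 12 libraries, 193 with 10 libraries, 118 with the replicate block, 114 with block and GC trend and 1351 when scaled by exon counts, and ran from 0 to 1707 with 1 library left out. Calls of the intron-to-exon ratio, 0, came to 123 with no filter, 48 with 12 libraries, 278 with 10 libraries, 120 with the replicate block and 1463 with 1 library size, and ran from 3 to 1530 with 1 library left out. With 1 library size they ran from 0 to 2913. PFDN5 over the gene body went from -0.063 to 0.035 without siControl replicate 2, the upper end of a range from -0.126 to 0.035 with 1 library left out. PFDN2 over the gene body (0.53) passed with no filter (0.56), DESeq2 (0.53), 10 libraries (0.54), the replicate block (0.53, and 0.56 with the GC trend), the exon-length trend removed (0.52), exon counts (0.58) and transcript sums (0.63), and ran from 0.37 to 0.69 with 1 library left out. TUBB (exon counts) went to -0.0091 with upper-quartile scaling, -0.04 with library size alone and -0.015 with the exon-length trend removed, and ran from -0.016 (without labelled siPFDN5 replicate 2) to 0.11 with 1 library left out. Calls before serum came to 5486 with no filter and 209 to 7555 with 1 library left out, and those of the difference to 5918 and 164 to 7616. The same number did not pair libraries (correlation of same-numbered deviations -0.326 on exons). With the numbers crossed, a pairing added after seeing the data, 7174 exon and 6504 gene-body genes were called, and PFDN2 stood at 0.53. Of 78 named genes that were called, 77 lost the call with 12 libraries, 23 without 1 library and 17 under another setting. The exon-length, mitochondrial, transcript-sum and exon-scaled alternatives were also added after seeing the data. The cause of these changes was not tested. In simulated data 2-fold changes were recovered for 77.3% of exon, 73.8% of gene-body and 36.4% of intronic tests, which limits what the intronic counts can show. Few genes were changed in the simulation and all had the same relative spread, so recovery in the real libraries can differ.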
